A study of Mus musculus with 9 samples.

Results

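The interleukin 6 (IL-6) family was followed across 3T3-L1 pre-adipocytes, mouse fibroblasts that turn into fat cells when induced. Its 10 listed genes were the ligands Il6, Il11, Lif, Ctf1 and Clcf1 and the receptor genes Il6st, Osmr, Lifr, Il6ra and Il11ra1, found by their exact symbol in the array platform's annotation, with the brightest probe set kept for each gene. Each of 9 genes had 1 named probe set, so brightness decided nothing, and Il11ra1 was not analysed here. These 9, which are 5 ligands and 4 receptors, were among 22180 genes with a probe set of 1 symbol, and all 9 were among the 12630 genes bright enough to test. The genes were chosen by symbol, and the family was selected on earlier results of these data, Il11's difference from vehicle among them, so the differences from vehicle below describe it, and their p-values, which come from the fit over all tested genes, are not independent evidence about it. The arrays fell into 3 groups of 3, all from confluent cells kept in growth arrest for a further 48 h. The first group had an siRNA against CD24, a small glycosylated protein of the cell surface, and then IBMX, a phosphodiesterase inhibitor that raises cAMP, with dexamethasone (Dex), a synthetic glucocorticoid. The second had a scrambled siRNA and the same IBMX/Dex, at 0.5 mM and 1 µM for 6 h with 100 nmol of either siRNA. The third had vehicle, and no time is given for it. No label says if vehicle cells were transfected, so in every difference from vehicle the effects of IBMX/Dex and of transfection cannot be told apart, and both differences share the same vehicle arrays. Nor do the labels say that replicates were separate cultures, and the p-values measure only the spread between these samples, which may be technical.

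Cytokines of this family act through the shared receptor chain gp130, encoded by Il6st. IL-6 and IL-11 first bind a receptor of their own, Il6ra or Il11ra1, and then gather gp130, whereas LIF, cardiotrophin-1 and the CLCF1 complex signal through gp130 paired with the LIF receptor. The joined receptors switch on JAK kinases, STAT transcription factors and the MAP kinase cascade, and SOCS proteins act as brakes on this signalling. Adipose stroma and fat cells are known sources of IL-6, and glucocorticoids and cAMP are both known to act on cytokine genes in many cell types.

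The stretch around the transcription start is shown for 3 ligand genes, Il6 and Il11 because they had the largest differences from vehicle among the members, and Lif as a ligand gene with no difference that passed the test. Each runs from 250 bases before to 50 bases after the start, 5′ to 3′ along the gene, from RefSeq on GRCm38.p6. The Il6 window is chr5:30012864-30013163 on the plus strand, the Il11 window chr7:4778092-4778391 on the minus strand and the Lif window chr11:4257318-4257617 on the plus strand. Capitals mark matches to the motifs searched.
Il6: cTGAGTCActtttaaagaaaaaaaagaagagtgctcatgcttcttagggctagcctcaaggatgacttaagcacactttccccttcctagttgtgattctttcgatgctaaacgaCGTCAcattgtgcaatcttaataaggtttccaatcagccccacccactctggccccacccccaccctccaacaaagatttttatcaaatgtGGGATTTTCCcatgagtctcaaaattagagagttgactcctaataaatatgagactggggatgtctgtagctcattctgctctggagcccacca
Il11: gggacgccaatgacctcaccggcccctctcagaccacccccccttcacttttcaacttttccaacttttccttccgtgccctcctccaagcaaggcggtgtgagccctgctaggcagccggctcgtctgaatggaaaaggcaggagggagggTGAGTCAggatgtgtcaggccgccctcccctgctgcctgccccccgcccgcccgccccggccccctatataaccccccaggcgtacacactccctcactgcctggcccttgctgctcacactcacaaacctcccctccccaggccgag
Lif: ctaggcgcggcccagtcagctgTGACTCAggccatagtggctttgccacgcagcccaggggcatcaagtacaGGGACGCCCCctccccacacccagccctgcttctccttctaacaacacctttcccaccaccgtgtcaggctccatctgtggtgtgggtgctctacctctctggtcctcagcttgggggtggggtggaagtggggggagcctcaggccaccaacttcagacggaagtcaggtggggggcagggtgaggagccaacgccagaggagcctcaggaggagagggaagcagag
In Il6 the capitals are an AP-1 motif starting 249 bases before the start, the short form of a cAMP response element on the other strand 135 bases before it and the NF-kB consensus 44 bases before it. Il11 held 1 match, to AP-1, 98 bases before the start, and its other RefSeq window had none. Lif held an AP-1 match 228 bases and an NF-kB match 178 bases before the start. The motifs were searched on both strands in 12 windows of 9 of the 10 members and in all 32851 windows of the table. AP-1 was searched as TGANTCA and was found in 7.81% of all windows and in 4 of the 12, the fourth being that of Osmr. The NF-kB consensus, searched by name, was in 8.46% of all windows and in 2 of the 12, and the short cAMP element TGACG was in 20.8% and in 2, those of Il6 and Il6ra. None of the 12 windows held the full cAMP response element TGACGTCA (1.79% of all windows), the C/EBP motif TTGCGCAA (0.183%), the STAT motif TTCNNNGAA (8.3%) or the glucocorticoid response element, searched by name (0.00913%). No match overlapped another. Clcf1 is named only. These matches describe the letters in the windows.

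The arrays gave log2 expression values with medians between 6.47 and 6.56, and arrays of a group correlated at 0.963 to 0.990 over all probe sets. Testing required values of at least 6.51, the median of the table, on 3 of the 9 arrays. Cd24a, the mouse gene for CD24, was checked first. On its brightest probe set it read 10.15, 10.16 and 11.72 in CD24 siRNA replicates 1 to 3, against 11.19, 11.73 and 11.81 with scrambled siRNA and 8.88, 9.92 and 9.49 in vehicle. Between same-numbered arrays, CD24 siRNA minus scrambled was therefore -1.04, -1.57 and -0.10. A dimmer probe set gave -2.05, -2.03 and -0.18. The array labelled CD24 siRNA replicate 3 thus showed almost none of the lower target level of the other CD24 siRNA arrays, and results that include it are given with and without it where leaving it out changed a call or clearly moved a value. The pre-adipocyte label was borne out by fibroblast markers, since all 9 of those measured, among them Vim, Fn1, Dlk1 and Col1a1, were above the filter level on every array. The mature fat cell genes Adipoq, Plin1, Cidec and Lep were below it on all 9 arrays. Fabp4, of the same list, was above it on all 9, at a mean of 9.60, and Retn on 6, at a mean of 6.64.

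Il11, which encodes a cytokine of fibroblasts and stroma, had the largest difference from vehicle in the family. It read 9.69, 9.88 and 9.56 log2 units with CD24 siRNA and IBMX/Dex, 9.63, 10.00 and 9.68 with scrambled siRNA and IBMX/Dex, and 7.35, 6.62 and 7.47 in vehicle. Every IBMX/Dex array lay more than 2 log2 units above every vehicle array, with no overlap. The means were 9.71 ± 0.16, 9.77 ± 0.20 and 7.15 ± 0.46 (SD, n = 3 each). Il11 was 5.91-fold higher than vehicle with CD24 siRNA (log2 difference 2.56 ± 0.22 SE, 95% interval 2.07 to 3.06, limma adjusted p = 4.26e-04), the 9th largest difference of the 12630 genes. With scrambled siRNA it was 6.16-fold higher (2.62 ± 0.22, 2.13 to 3.11, limma adjusted p = 3.84e-04), the 12th largest. It passed the threshold of 0.05 in both comparisons whichever array was left out, and without CD24 siRNA replicate 3 the first difference was 2.64 (limma adjusted p = 0.00358).

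**Figure D1:**
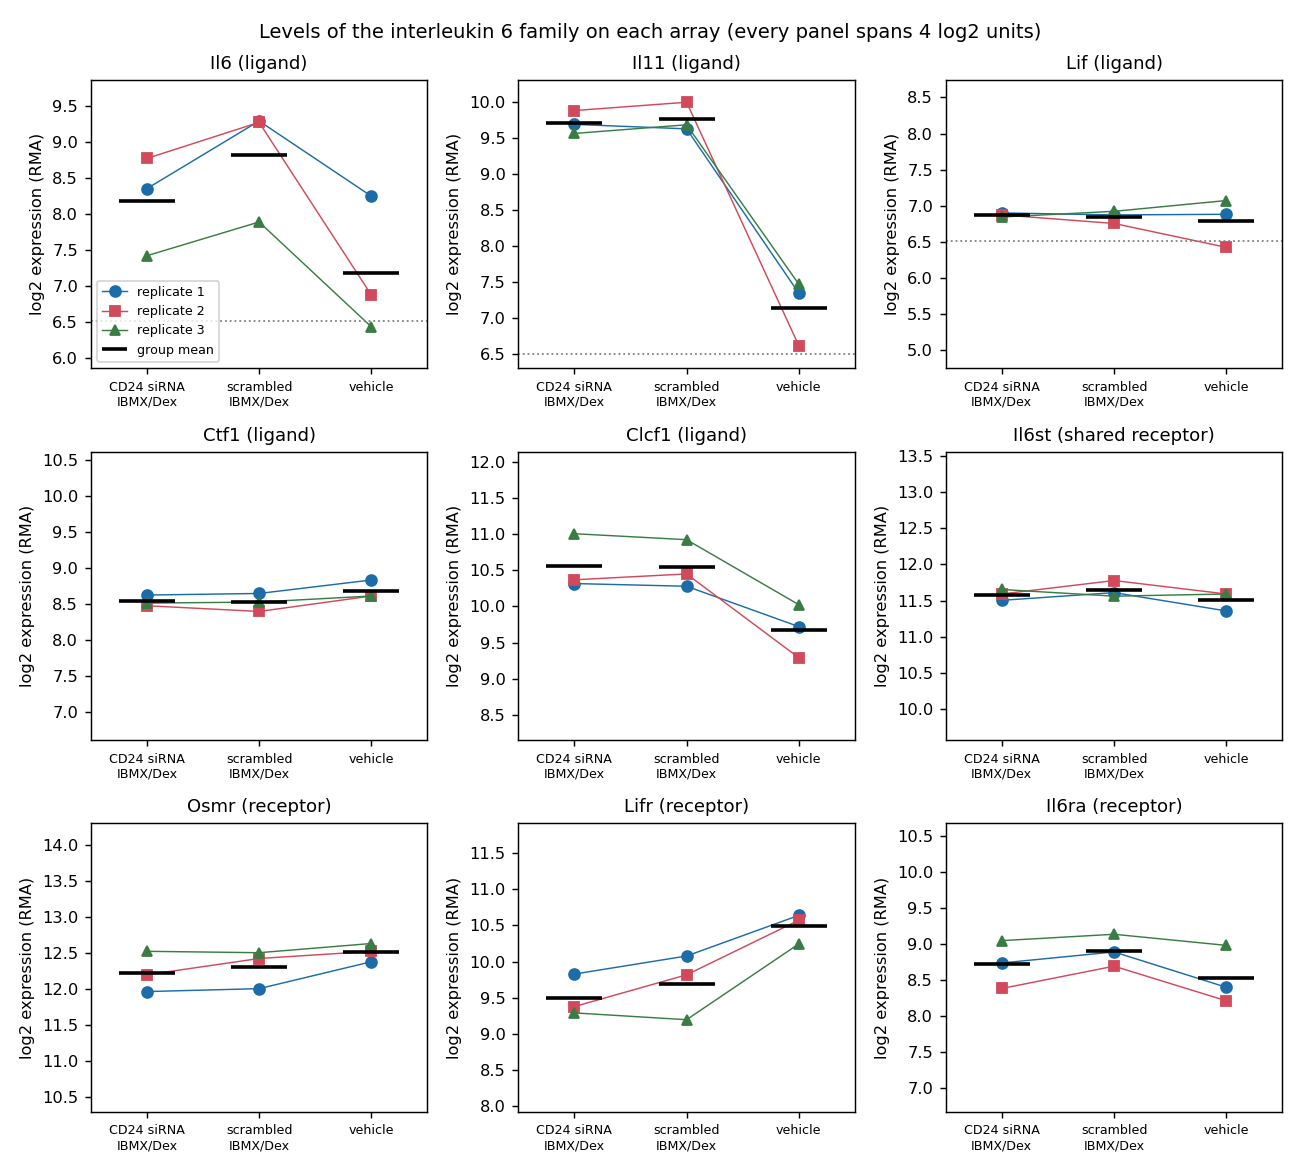
Log2 level of each of the 9 measured IL-6 family genes (vertical axis, log2 units) on each array, in 1 panel a gene, with CD24 siRNA plus IBMX/Dex on the left, scrambled siRNA plus IBMX/Dex in the middle and vehicle on the right. Symbols and colours mark the replicate number, thin lines join same-numbered arrays, black bars are group means (n = 3), the dotted line is the filter level where it falls in the panel, and every panel spans 4 log2 units. Il11 stands apart most, at 9.56 to 10.00 in the IBMX/Dex groups and 6.62 to 7.47 in vehicle.

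Il6, which encodes the founding cytokine of the family, was higher than vehicle in every same-numbered pair, but its arrays spread widely. It read 8.35, 8.77 and 7.42 with CD24 siRNA, 9.29, 9.27 and 7.89 with scrambled siRNA, and 8.25, 6.88 and 6.44 in vehicle. Replicate 3 was the lowest array of each group, and vehicle replicate 1 lay above the third replicates of both IBMX/Dex groups, so both overlapped vehicle. The means were 8.18 ± 0.69, 8.82 ± 0.80 and 7.19 ± 0.95 (SD, n = 3 each). Between same-numbered arrays, CD24 siRNA minus vehicle was 0.10, 1.89 and 0.99, and scrambled minus vehicle was 1.04, 2.40 and 1.45. Comparing group means, Il6 did not pass: the difference was 1.00 ± 0.55 (SE, 1.99-fold) with CD24 siRNA (limma adjusted p = 0.333) and 1.63 ± 0.55 (3.10-fold) with scrambled siRNA (limma adjusted p = 0.115). When replicate number entered the fit as a block, Il6 rose in both (limma adjusted p = 0.0261 with CD24 siRNA and 0.0027 with scrambled siRNA). The blocked call with CD24 siRNA was lost when replicate 2 or 3 of either CD24 siRNA or vehicle was left out, with limma adjusted p = 0.0861 without CD24 siRNA replicate 3. With no block and without CD24 siRNA replicate 3, the CD24 siRNA difference from vehicle was 1.38 (2.59-fold, limma adjusted p = 0.264). Without vehicle replicate 1 and with no block, scrambled siRNA alone passed, at 2.16.

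Clcf1, which encodes cardiotrophin-like cytokine factor 1, a ligand secreted in a complex with a partner protein, was higher in both IBMX/Dex groups. It read 10.32, 10.37 and 11.01 with CD24 siRNA, 10.28, 10.45 and 10.93 with scrambled siRNA, and 9.72, 9.29 and 10.02 in vehicle. The lowest IBMX/Dex array lay above the highest vehicle array, and replicate 3 was the highest of each group. The means were 10.57 ± 0.38, 10.55 ± 0.33 and 9.68 ± 0.37 (SD, n = 3 each). The difference from vehicle was 0.89 ± 0.26 (SE, 1.85-fold) with CD24 siRNA and 0.87 ± 0.26 (1.83-fold) with scrambled siRNA, which missed the threshold without the block (limma adjusted p = 0.0736 and 0.0755) and passed with it (limma adjusted p = 0.0013 and 0.00127). The blocked calls held whichever array was left out. Leaving out CD24 siRNA replicate 3, the CD24 siRNA difference from vehicle was 0.67 with no block (limma adjusted p = 0.204) and 0.85 with it.

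Lif and Ctf1, which encode leukaemia inhibitory factor and cardiotrophin-1, had no difference that passed the test, with or without the block. Lif read 6.90, 6.87 and 6.84 with CD24 siRNA, 6.87, 6.75 and 6.92 with scrambled siRNA, and 6.88, 6.42 and 7.07 in vehicle. These values were near the filter level of 6.51, and the vehicle arrays spanned those of both other groups. Its difference from vehicle was 0.08 ± 0.16 (SE) with CD24 siRNA, with a 95% interval of -0.27 to 0.43, and 0.06 ± 0.16 with scrambled siRNA, with an interval of -0.30 to 0.41. Ctf1 read 8.63, 8.48 and 8.51 with CD24 siRNA, 8.65, 8.40 and 8.53 with scrambled siRNA, and 8.84, 8.61 and 8.61 in vehicle. In every same-numbered pair Ctf1 was below vehicle, with differences between -0.08 and -0.21, and its groups overlapped. The differences of the means were -0.15 ± 0.11 (SE, limma adjusted p = 0.501) with CD24 siRNA and -0.16 ± 0.11 (limma adjusted p = 0.447) with scrambled siRNA.

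Among the receptors, Lifr was the one that was lower on every IBMX/Dex array than on every vehicle array. The LIF receptor pairs with gp130 for LIF, cardiotrophin-1 and the CLCF1 complex. Lifr read 9.83, 9.37 and 9.29 with CD24 siRNA, 10.08, 9.82 and 9.19 with scrambled siRNA, and 10.64, 10.57 and 10.24 in vehicle. Replicate 3 was the lowest array in each group, the opposite of Clcf1. The means were 9.50 ± 0.29, 9.69 ± 0.45 and 10.49 ± 0.21 (SD, n = 3 each). With CD24 siRNA it fell by 0.99 on the log2 scale (SE 0.24, 95% interval -1.52 to -0.46, limma adjusted p = 0.0401), a 1.99-fold lower level. That call without the block was lost when any array but scrambled replicate 1 or 3 was left out, with a difference of -0.89 (limma adjusted p = 0.135) without CD24 siRNA replicate 3. With scrambled siRNA the difference was -0.79 ± 0.24 (limma adjusted p = 0.081). With the block Lifr fell in both (limma adjusted p = 8.02e-04 with CD24 siRNA and 0.00223 with scrambled siRNA), whichever array was left out. In bulk RNA, fewer cells of a type and less RNA per cell cannot be told apart.

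Il6ra, the receptor chain that binds IL-6 itself, read 8.74, 8.38 and 9.05 with CD24 siRNA, 8.89, 8.69 and 9.14 with scrambled siRNA, and 8.40, 8.21 and 8.98 in vehicle. Replicate 2 was the lowest and replicate 3 the highest of each group, and the groups overlapped. Same-numbered differences from vehicle were 0.34, 0.17 and 0.07 with CD24 siRNA and 0.49, 0.48 and 0.15 with scrambled siRNA. All 3 were positive, as for Il6, in 25.9% of all tested genes with CD24 siRNA and in 27.6% with scrambled siRNA. The difference was 0.19 ± 0.23 (SE, limma adjusted p = 0.695) with CD24 siRNA and 0.37 ± 0.23 (limma adjusted p = 0.385) with scrambled siRNA. With the block Il6ra rose 1.30-fold with scrambled siRNA (limma adjusted p = 0.0278), a call lost without scrambled replicate 1 or 2 or vehicle replicate 1 or 2, and the value with CD24 siRNA did not pass (limma adjusted p = 0.22). That value was 0.03 with no block and 0.20 with it when CD24 siRNA replicate 3 was left out.

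Il6st, the shared chain gp130, and Osmr, which pairs with gp130 to bind oncostatin M, did not pass in any comparison. Il6st read 11.50, 11.59 and 11.65 with CD24 siRNA, 11.61, 11.78 and 11.56 with scrambled siRNA, and 11.36, 11.59 and 11.59 in vehicle. Its difference from vehicle was 0.07 ± 0.11 (SE, 95% interval -0.18 to 0.32) with CD24 siRNA and 0.14 ± 0.11 (-0.12 to 0.39) with scrambled siRNA. The groups overlapped and the intervals were narrow beside those of Il6. Osmr read 11.96, 12.20 and 12.52 with CD24 siRNA, 12.00, 12.42 and 12.50 with scrambled siRNA, and 12.38, 12.52 and 12.63 in vehicle. Osmr was below vehicle in every same-numbered pair, like Ctf1, although the groups overlapped. All 3 differences were negative in 25.4% of all tested genes with CD24 siRNA and in 24.3% with scrambled siRNA. The means differed from vehicle by -0.28 ± 0.18 (SE) with CD24 siRNA (limma adjusted p = 0.4, and 0.0774 with the block) and by -0.20 ± 0.18 with scrambled siRNA (limma adjusted p = 0.564, and 0.192 with the block). Leaving out CD24 siRNA replicate 3 gave -0.43 for the first with no block, which did not pass.

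Set against vehicle, 2 of the 9 measured members passed with CD24 siRNA, Il11 higher and Lifr lower, where 6.65% of all tested genes passed. With scrambled siRNA 1 of 9 passed, Il11, where 6.94% of all tested genes did. With the replicate block 4 of 9 passed with CD24 siRNA (Il6, Il11 and Clcf1 higher, Lifr lower) beside 22.4% of all genes, and 5 of 9 with scrambled siRNA, which added Il6ra, beside 23.3%. Without CD24 siRNA replicate 3, Il11 alone passed with CD24 siRNA, beside 2.54% of all genes, and with the block Il11, Clcf1 and Lifr passed, beside 14% of all genes. Il11, Clcf1 and Lifr were the 3 members whose arrays did not overlap vehicle in either comparison, while 25.8% of all genes did not overlap with CD24 siRNA and 25.2% with scrambled siRNA. The median log2 difference of the members was 0.08 with CD24 siRNA and 0.14 with scrambled siRNA, beside 0.02 over all tested genes in each. The quartiles of all tested genes were -0.19 and 0.18 with CD24 siRNA, and Il6, Il11, Clcf1, Il6ra, Lifr and Osmr lay outside them.

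**Figure D2:**
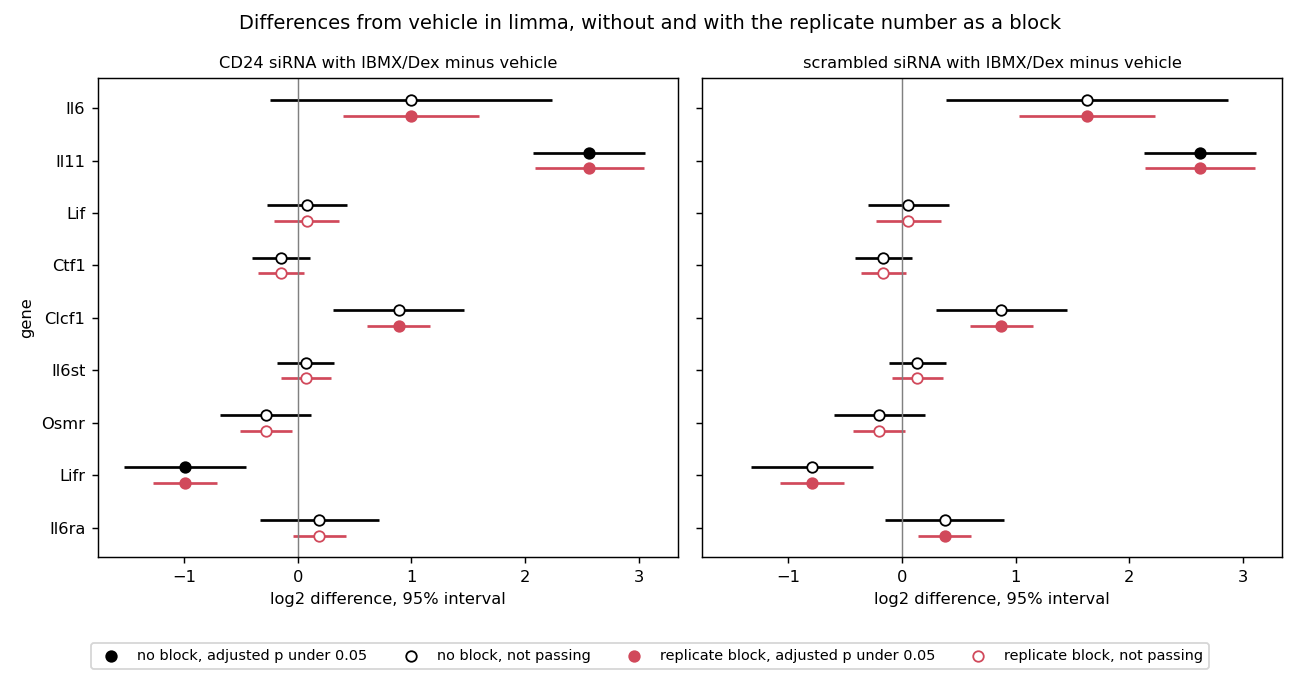
Log2 difference from vehicle of each measured IL-6 family gene (horizontal axis, log2 units) for CD24 siRNA plus IBMX/Dex and for scrambled siRNA plus IBMX/Dex, with 95% intervals from limma without the replicate block (black) and with it (red), filled symbols marking an adjusted p under 0.05. Il11 lies farthest to the right at 2.56 and 2.62, Lifr farthest to the left at -0.99 and -0.79, and Lif, Ctf1, Il6st, Osmr and Il6ra have black intervals that reach 0 in both panels.

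CD24 siRNA was set against scrambled siRNA, both with IBMX/Dex, to ask whether lowering CD24 shifts the response. None of the 9 members passed in limma, and 0% of all tested genes did, with or without the block. At an unadjusted p under 0.05, 0 members and 30 genes (0.238%) were found without the block, and 1 member, Il6, and 219 genes (1.73%) with it. Il6 was lower with CD24 siRNA in each same-numbered pair, with differences of -0.94, -0.50 and -0.47, although the groups overlapped. All 3 differences were negative in 15.7% of all tested genes. The difference of the means was -0.64 ± 0.55 (SE, 95% interval -1.88 to 0.60), a 1.55-fold lower level with limma adjusted p = 1, and it ranked 22nd in size among the 12630 genes. With the block its standard error was 0.27, its interval -1.23 to -0.04 and its unadjusted limma p 0.0394, with adjusted p = 1. Without CD24 siRNA replicate 3, the array whose Cd24a level was near that of its scrambled partner, the difference was -0.26 with no block and -0.68 with it, and Il6 did not pass in either. The fit with no block keeps scrambled replicate 3, the lowest Il6 array of its group, without its same-numbered partner. Cd24a itself differed by -0.90 ± 0.43 (SE, limma adjusted p = 1). Without that array Cd24a differed by -1.42 ± 0.30 with no block (limma adjusted p = 1) and by -1.35 ± 0.20 with it (limma adjusted p = 0.728), the largest difference in size among the 12630 genes in both fits.

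Il6ra was also lower with CD24 siRNA in all 3 pairs, with differences of -0.15, -0.31 and -0.09, and Lifr in 2 of 3, with -0.25 and -0.44, against 0.09 in the third. Their differences of means were -0.18 ± 0.23 (SE, 95% interval -0.71 to 0.34) for Il6ra and -0.20 ± 0.24 (-0.73 to 0.34) for Lifr. Leaving out CD24 siRNA replicate 3, they were -0.35 for Il6ra and -0.09 for Lifr with no block, and -0.18 for Il6ra and -0.28 for Lifr with it. Il11 differed by -0.06 with an interval of -0.55 to 0.43, and Clcf1 by 0.01 with an interval of -0.56 to 0.59. The remaining 4 members, Lif, Ctf1, Il6st and Osmr, differed by -0.08 to 0.02. With that array left out and no block, Il11 differed by 0.02, Clcf1 by -0.21 and Osmr by -0.23. With the block they differed by 0.08, -0.03 and -0.15, and none passed in either fit. With no block, scrambled replicate 3 stays in without its same-numbered partner, so the shift of that number is not taken out of these differences. The half-width of the unadjusted 95% interval for the median tested gene was 0.34 log2 units, or 1.27-fold, and 0.25 log2 units, or 1.19-fold, with the block.

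**Figure D3:**
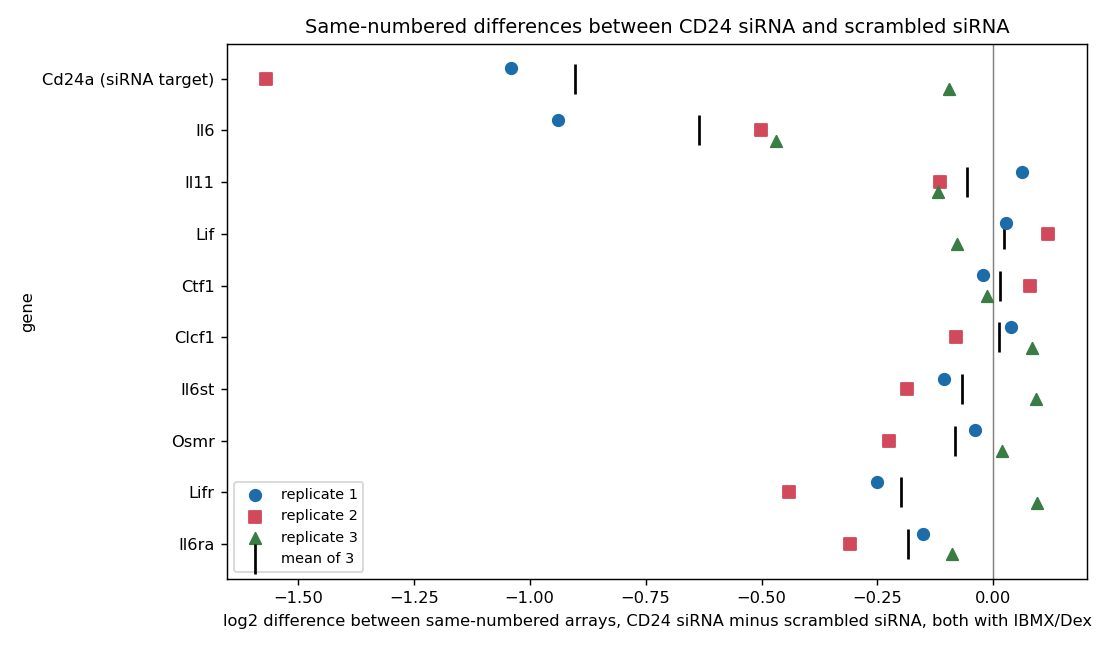
Log2 difference of CD24 siRNA minus scrambled siRNA, both with IBMX/Dex (horizontal axis, log2 units), for the 9 members and for the target Cd24a, with 1 symbol for each of the 3 same-numbered differences and a black bar for their mean. Il6 lies below 0 at -0.94, -0.50 and -0.47, while the third symbol of Cd24a lies at -0.10, near 0.

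The members differed in how steady their arrays were. The SD within groups was 0.82 log2 units for Il6, above that of 98.9% of tested genes, and 0.47 after the shared shift of each replicate number was taken out. For Clcf1 it was 0.36 within groups and 0.17 after that step, for Lifr 0.33 and 0.17, and for Il6ra 0.33 and 0.11. Osmr and Ctf1 narrowed as well, Osmr to 0.10 after that step against 0.24 within groups and Ctf1 to 0.043 against 0.11. In these 6 members the arrays of 1 number thus deviated together, and Lif and Il6st narrowed less, to 0.18 against 0.20 and to 0.090 against 0.11. Il11 went the other way, from 0.30 within groups to 0.37 after the numbers were removed. Over all tested genes the medians were 0.19 and 0.14. Ctf1 and Il6st had the smallest SD within groups of the members, both at 0.11.

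Likeness to other genes was measured as the root mean square difference between profiles centred on their own means, over the 9 arrays. Il6 had no gene within 0.25 log2 units of it, and its nearest were Mir1949 at 0.41, AF357399 at 0.44 and S1pr1 at 0.44. Il11 also had none within 0.25, with Pi15 at 0.251, just outside it, Uap1 at 0.32 and Glul at 0.33 nearest. The distance is absolute, and the profiles of Il6 and Il11 span 2.86 and 3.38 log2 units over the arrays, against 1.72 for Clcf1 and 1.45 for Lifr, so the same limit asks more of them. Clcf1 had 89 genes within that distance, led by Tanc1 at 0.11, Cers6 at 0.13 and Pard3 at 0.13, and Lifr had 82, led by Tnip1 at 0.12, Siglecg at 0.15 and Cyld at 0.17. Il6ra had 809, with Zfp703 at 0.09, Pdpn at 0.10 and 6430548M08Rik at 0.11 nearest. The flatter profiles had more, with 3388 genes for Osmr, led by Arsb, Gpr52 and Map4, 6446 for Lif, led by Wdcp, Mthfsd and Ampd2, 7170 for Il6st, led by Slc2a4rg-ps, Mbtd1 and Tmlhe, and 7195 for Ctf1, led by 9330179D12Rik, Zfand3 and Insyn1. This is a description over arrays that share treatment and replicate number.

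Genes around the shared receptor were read from 5 lists. Of the other family ligands and receptors, 5 of 11 were tested, namely Osm, Il27, Cntfr, Il27ra and Il31ra, and none passed in any comparison, with or without the block. In the list of gp130 signal transduction, 11 of 15 were tested. Stat5a and Stat5b, transcription factors used by many cytokine and growth hormone receptors, fell in both IBMX/Dex groups. Stat5a averaged 8.08 ± 0.12 with CD24 siRNA, 8.00 ± 0.21 with scrambled siRNA and 8.96 ± 0.12 in vehicle (SD, n = 3 each), differences of -0.88 (limma adjusted p = 0.00749) and -0.96 (0.00485). Stat5b averaged 7.56 ± 0.33, 7.50 ± 0.42 and 8.64 ± 0.16, differences of -1.08 (limma adjusted p = 0.0265) and -1.14 (0.021). The adaptor gene Gab1 fell with CD24 siRNA by 0.58 (limma adjusted p = 0.0392), and its value with scrambled siRNA, -0.44, passed with the block alone (limma adjusted p = 0.0108). The first call was lost when CD24 siRNA replicate 1 or 2, or replicate 2 or 3 of scrambled siRNA or vehicle, was left out, and the second without scrambled replicate 3. The calls were thus 3 lower and 0 higher with CD24 siRNA and 2 lower and 0 higher with scrambled siRNA, of 11 genes each, where 6.65% and 6.94% of all tested genes passed in either direction. With the block 4 of 11 were lower in each, Tyk2 being the fourth, beside 22.4% of all genes with CD24 siRNA and 23.3% with scrambled siRNA. The Stat5b call without the block was lost with CD24 siRNA when any array of that group, or vehicle replicate 1 or 3, was left out, and with scrambled siRNA when replicate 1 or 3 of either group was. The list's median was -0.26 with CD24 siRNA and -0.24 with scrambled siRNA, beside 0.02 over all genes.

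Of the 11 negative regulators, all tested, 1 passed without the block in each comparison with vehicle, Socs2. This stands beside 6.65% of all tested genes with CD24 siRNA and 6.94% with scrambled siRNA. Socs2 restrains signalling by growth hormone and other cytokine receptors. It averaged 10.07 ± 0.18 with CD24 siRNA, 10.28 ± 0.25 with scrambled siRNA and 8.29 ± 0.58 in vehicle (SD, n = 3 each). It was 3.43-fold higher than vehicle with CD24 siRNA (limma adjusted p = 0.00685) and 3.96-fold higher with scrambled siRNA (limma adjusted p = 0.00384), whichever array was left out. With the block Spry2, Dusp6 and Socs1 rose as well with scrambled siRNA, making 4 of 11 beside 23.3% of all genes, while Socs2 remained the 1 call with CD24 siRNA, beside 22.4%. Socs3, the inhibitor best known for binding gp130, was looked up after the values were seen, and differed from vehicle by -0.27 (limma adjusted p = 0.584) with CD24 siRNA and -0.06 (0.914) with scrambled siRNA. The medians of the list were 0.08 with CD24 siRNA and 0.22 with scrambled siRNA.

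Without the block 1 of 22 genes known as STAT3 targets, all tested, passed in each comparison with vehicle. Of all tested genes 6.65% passed with CD24 siRNA and 6.94% with scrambled siRNA. The 1 gene was Vegfa, which encodes a growth factor of blood vessels, and it rose. It averaged 11.18 ± 0.10 with CD24 siRNA, 11.30 ± 0.19 with scrambled siRNA and 9.65 ± 0.42 in vehicle (SD, n = 3 each), 2.89-fold (limma adjusted p = 0.00355) and 3.12-fold (0.0024) higher than vehicle, whichever array was left out. With the block 8 rose and 2 fell of the 22 with CD24 siRNA, beside 22.4% of all genes in either direction, and 9 rose and 1 fell with scrambled siRNA, beside 23.3%, Il6ra of the family itself being among those 9. Myc, a growth regulator, rose by 1.04 with CD24 siRNA (limma adjusted p = 0.00219 with the block) and 1.12 with scrambled siRNA (0.00139), and Cebpd, an early adipogenic transcription factor, fell by 0.91 (0.00107) and 0.54 (0.0117). Cebpb, of the same C/EBP family, went the other way and passed with the block in both comparisons. It averaged 10.43 with CD24 siRNA, 10.46 with scrambled siRNA and 9.70 in vehicle. Fos, Timp1 and Hif1a also rose in both with the block, and Mcl1 with scrambled siRNA. Without CD24 siRNA replicate 3, the blocked count with CD24 siRNA was 5 higher and 2 lower, beside 14% of all genes. Hif1a then no longer passed with CD24 siRNA. Medians were 0.10 with CD24 siRNA and 0.12 with scrambled siRNA. The list mixes genes with many other inputs, and its counts describe these genes alone.

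The last list held 5 genes of receptor shedding, the cutting of receptors such as the IL-6 receptor from the cell surface, and none passed without the block. With it Rhbdf1 and Rhbdf2, partners of the protease ADAM17, were lower in both IBMX/Dex groups, with differences of -0.86 (limma adjusted p = 0.0105) with CD24 siRNA and -0.72 (0.0219) with scrambled siRNA for Rhbdf1, and of -0.74 (0.00671) and -0.59 (0.0173) for Rhbdf2. Adam17 fell by 0.39 with CD24 siRNA (0.0377), a call lost without CD24 siRNA replicate 3. Thus 3 of 5 were called with CD24 siRNA, beside 22.4% of all genes, and 2 of 5 with scrambled siRNA, beside 23.3%. The medians were -0.39 with CD24 siRNA and -0.27 with scrambled siRNA. Between CD24 and scrambled siRNA no gene of the 5 lists passed.

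**Figure D4:**
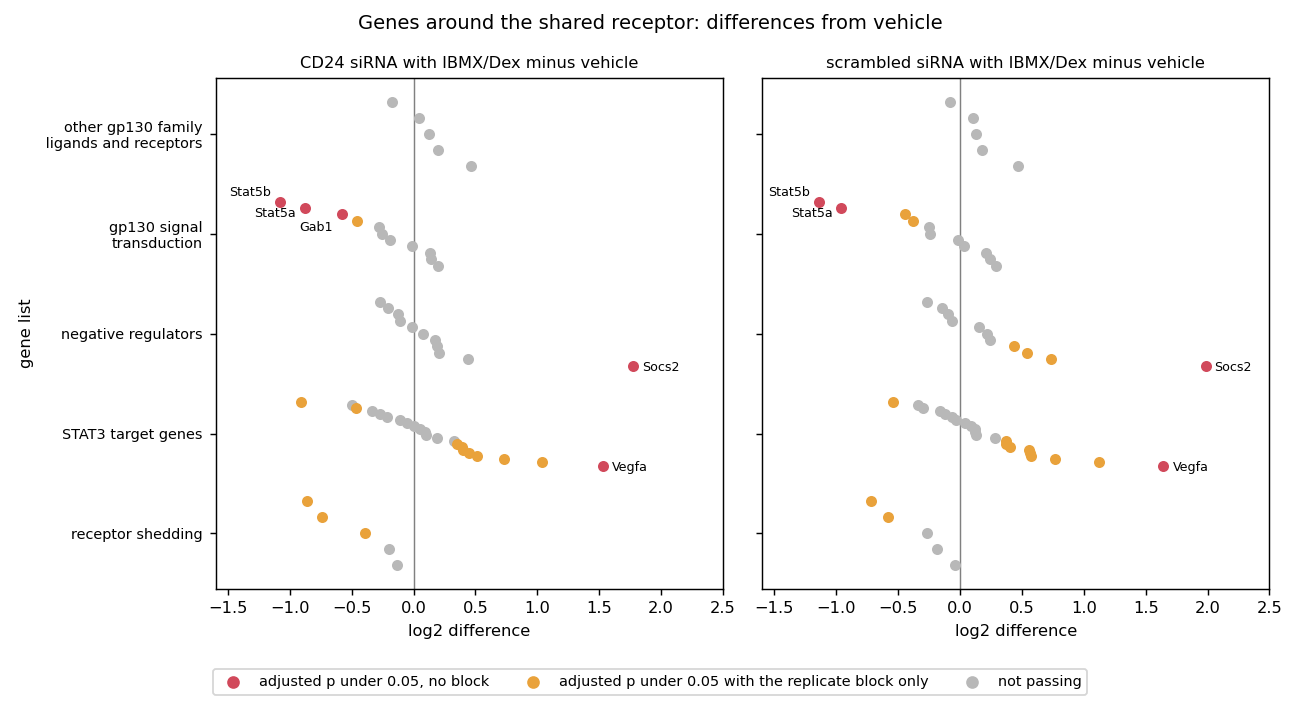
Log2 difference from vehicle (horizontal axis, log2 units) of every tested gene in 5 lists around the gp130 receptor (vertical axis), with CD24 siRNA plus IBMX/Dex on the left and scrambled siRNA plus IBMX/Dex on the right. Socs2 and Vegfa lie to the right and Stat5a and Stat5b to the left in both panels, and Gab1 in the left panel, as the genes that passed without the replicate block (red). Orange genes passed with the block alone and grey genes did not pass.

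Markers of other cell types were read beside these results. Of 7 macrophage markers, a cell type rich in cytokines, Ptprc, Adgre1, Itgam and Tyrobp were below the filter level on all 9 arrays, while Csf1r, Cd68 and Lyz2 were above it on all 9, with means of 6.97, 8.26 and 7.49. None of these 3 passed without the block. With it Lyz2, a lysozyme gene, fell by 0.98 with scrambled siRNA (limma adjusted p = 0.043), a call lost without CD24 siRNA replicate 3 (limma adjusted p = 0.0511). Cd68 passed in neither comparison with all arrays but in both blocked fits when that array was left out, at 0.48 with CD24 siRNA (limma adjusted p = 0.0282) and 0.34 with scrambled siRNA (limma adjusted p = 0.0361). The mean level of the 7 was 6.44 to 6.65 with CD24 siRNA, 6.35 to 6.53 with scrambled siRNA and 6.33 to 6.64 in vehicle. Of the endothelial markers 1 of 4 was tested, and of the T cell markers 0 of 4.

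Of the 9 fibroblast markers 2 passed without the block in each comparison, Pdgfra and Pdgfrb, growth factor receptors of mesenchymal cells, beside 6.65% of all genes with CD24 siRNA and 6.94% with scrambled siRNA. Pdgfrb fell by 1.61 (limma adjusted p = 0.00206) with CD24 siRNA and 1.66 (0.00154) with scrambled siRNA. Pdgfra fell by 1.10 (limma adjusted p = 0.016) with CD24 siRNA and 1.04 (0.0185) with scrambled siRNA. Without CD24 siRNA replicate 3 the first Pdgfra value was -1.15, which missed the threshold with no block (limma adjusted p = 0.0515) and passed at -1.10 with it (limma adjusted p = 0.00235). With the block the collagen genes Col1a2 and Col3a1 fell too in both comparisons, making 4 of 9 with CD24 siRNA beside 22.4% of all genes, and Col1a1 fell with scrambled siRNA, making 5 of 9 beside 23.3%. The other 4 passed in neither, and Thy1 averaged 11.16 with CD24 siRNA, 11.23 with scrambled siRNA and 10.99 in vehicle. The mean level of the 9 fibroblast markers was 11.37 to 11.48 with CD24 siRNA, 11.35 to 11.50 with scrambled siRNA and 11.81 to 11.95 in vehicle. The part of this difference in the family's values was not tested.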

How the data were processed

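Total RNA (250 ng, labelled with biotin) from 9 samples was hybridised to 9 single-colour arrays. The deposited log2 values were made by the authors with RMA and oligo, per the submitters' processing notes, which name no version. RMA makes the arrays alike in distribution, so a shift shared by most transcripts is lost, and differences of dim probe sets are compressed. Sample titles gave the groups and replicate numbers. Of 41345 probe sets, 23521 had 1 gene symbol, 1814 several and 16010 none here, and only the first kind was used, with the brightest probe set for each of 22180 genes.

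Genes at or above the table's median, 6.51, on at least 3 arrays were tested. Differences were fitted with limma 3.58.1 in R 4.3.3 (lmFit, eBayes, all 9 arrays, no covariate), and p-values were adjusted by Benjamini-Hochberg over 12630 genes with a threshold of 0.05, two-sided. Fits were tested on simulated data. Same-numbered arrays deviated together (correlations of 0.377 to 0.732, against -0.589 to 0.116 otherwise, with each of 9 arrays nearest to its own number). The main fit did not use these numbers, which the titles give, to pair the samples. A further fit took them as a block, and its values are given where they change a call. The named genes are all members, the target, the list genes that passed (at most the 6 with the smallest p per list and comparison) and the 3 nearest profiles of each member. The members and lists were chosen with earlier results of these data known. Alternatives were the block, each array left out, other filters, normalizations and spread estimates.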

Additional observations from a re-analysis of the deposited data

How the results depend on the processing

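With replicate number as a block, the members passing the threshold against vehicle numbered 4 with CD24 siRNA, where 2 passed without it, and 5 with scrambled siRNA, where 1 did. The count with CD24 siRNA was 1 with no filter on low values and 1 with arrays centred on their medians, since Lifr then missed the threshold (limma adjusted p = 0.0629 and 0.0517). Leaving out each array in turn, the count ranged from 1 to 4 with CD24 siRNA (1 to 2 unblocked, 3 to 4 blocked) and from 1 to 5 with scrambled siRNA (1 to 2 unblocked, 4 to 5 blocked), and was 0 throughout between CD24 and scrambled siRNA. Over all genes, 840 passed with CD24 siRNA against vehicle, 2831 with the block, 461 with only the arrays of both groups compared, and 321 to 857 with an array left out and no block. With scrambled siRNA the same counts were 876, 2942, 389 and 313 to 852. Apart from arrays left out, 304 values of single genes under other settings kept their direction and side of the threshold, 8 passed with the block alone and 5 were lost. The lost ones were those of Lifr above and of Gab1 with CD24 siRNA (no filter, quantile normalization, or only the arrays of both groups). The cause was not tested. The block, the filters, the spread estimates and the fits on only the arrays of both groups leave each difference itself unchanged, so no direction could reverse there. Averaging a gene's probe sets, another setting, also leaves the differences of the measured members unchanged, since each had 1 named probe set. None reversed under the remaining settings, apart from arrays left out. With 1 array left out, signs reversed only for differences near 0. Against vehicle, Lif ranged from -0.10 to 0.22 with CD24 siRNA and -0.13 to 0.20 with scrambled siRNA, and Il6st from -0.00833 to 0.12 with CD24 siRNA. For CD24 minus scrambled siRNA, Il11 ranged from -0.22 to 0.14, Lif from -0.0939 to 0.12, Ctf1 from -0.0492 to 0.0756, Clcf1 from -0.21 to 0.20 and Osmr from -0.24 to 0.0495. Lif was below the filter at the 75th percentile (8.07). The number of arrays limits precision.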
